A study of Mus musculus with 6 samples.

Results

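The extracellular nucleotidases and adenosine receptors are the genes through which cells turn released ATP into adenosine, sense it and remove it. Of the 8 genes chosen, Nt5e, Entpd1, Entpd2, Ada, Adora1, Adora2a, Adora2b and Adora3, 4 were measured by a probeset that names no other gene, among 19938 genes named in this way by 35556 probesets. Nt5e, Entpd1, Entpd2 and Ada each had 1 such probeset. Adora3 was named only by a probeset that also names Tmigd3, and Adora1, Adora2a and Adora2b were not named by any probeset in the annotation used, so that the 4 adenosine receptors were not analysed here and all values below are of the enzymes.

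Primary osteoblasts, the bone-forming cells, were grown from the long bones of 3 male wild-type C57BL6/J mice aged 8 to 12 weeks, numbered 2, 4 and 5, and used at passage 2 to 3. All cultures received osteogenic differentiation medium for 14 days. On day 15, 1 culture of each mouse stayed for 4 h in normal proliferation medium (unstimulated) and 1 received recombinant murine C5a, a fragment of the complement protein C5 that signals through C5aR1, in the same medium for 4 h (C5a). Each culture gave 1 microarray, so that each group held 3 arrays. The comparison asks which genes respond to C5a in differentiated osteoblasts, and cultures with the same number formed a pair.

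ATP that leaves a cell is cut at the cell surface to ADP and AMP by the CD39 family, encoded by the Entpd genes, and AMP is cut to adenosine by CD73, encoded by Nt5e. Adenosine acts on G protein-coupled receptors that raise or lower cyclic AMP, and is removed by uptake into cells or by deamination to inosine through adenosine deaminase, encoded by Ada. In bone, ATP acts on P2 receptors of osteoblasts and osteoclasts, and its breakdown also yields phosphate and the mineralization inhibitor pyrophosphate, while CD39 is best known from macrophages, other leukocytes and endothelium.

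The labelled cell type was set against marker genes. Values are log2 intensities, in which a difference of 1 is a 2-fold difference. As a reference for probesets without specific signal, 1035 probesets of olfactory receptor genes had a 95th percentile of 5.30 to 5.46 on the 6 arrays. Osteoblast markers lay above it on all arrays (6 of 6 measured of 9 listed), with a mean of 10.6 to 12.4. However, 3 of these 6, Sp7, Alpl and Ibsp, differed between the mice at an adjusted p under 0.05 (limma), against 2.5% of all probesets. Ibsp, the bone sialoprotein gene, averaged 11.51, 12.75 and 7.29 over the cultures of mice 2, 4 and 5. Macrophage and osteoclast markers (12 of 12 measured) had a mean of 9.97, 10.3 and 6.65 in the unstimulated cultures of mice 2, 4 and 5 and of 9.64, 9.89 and 6.78 with C5a, and 9 of them were above the reference on every array. All 12 were lowest in mouse 5, and 9 differed between the mice at an adjusted p under 0.05 (limma), against 2.5% of all probesets. The macrophage marker Adgre1, for example, averaged 10.01, 10.16 and 5.53 over the cultures of mice 2, 4 and 5. Endothelial markers had a mean of 5.33 to 5.46, with Tek and Emcn below the reference and Cdh5 and Vwf above it on every array. T lymphocyte markers (4 of 5 measured) had a mean of 5.13 to 5.24, with Cd3d and Cd4 below it and Cd3e above it on every array. In such bulk cultures, fewer cells of a type and less RNA per cell cannot be told apart.

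None of the 4 measured enzymes passed the thresholds of the study's methods for C5a, an unadjusted p under 0.05 with at least a 1.5-fold difference, against 3.28% of all probesets, of which 1.71% were higher and 1.57% lower with C5a. In limma with mouse as a block, 0 of 4 reached an unadjusted p under 0.05, against 16.2% of all probesets, and 0 of 4 an adjusted p under 0.05, against 0.0112%. Without the moderation of variances, 0 of 4 passed the thresholds in the unpaired as in the paired form of the test, against 665 and 517 of 35556 probesets. These forms leave the log2 differences as they are, and all 4 were short of 1.5-fold. The median log2 difference of the 4 genes was 0.06, beside 0.01 over all probesets. The highest and lowest mouse means lay further apart than the treatment means for each of the 4 genes. A range over more means, each of fewer arrays, is expected to be wider even without a difference between mice. In the test between the mice, 2 of 4, Nt5e and Entpd1, differed at an adjusted p under 0.05 (limma), against 2.5% of all probesets.

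**Figure D1:**
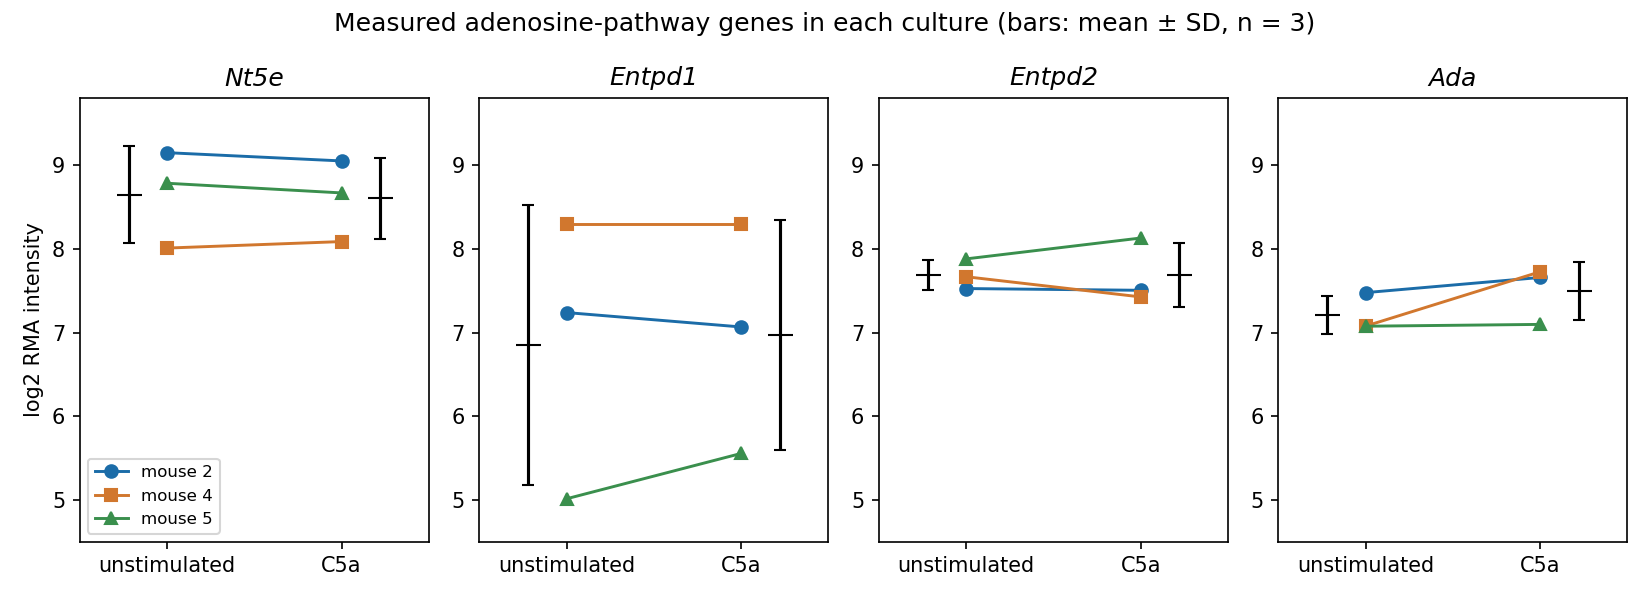
Log2 intensity (y axis) of the 4 measured genes in the unstimulated and the C5a culture (x axis) of each mouse, with a line joining the cultures of 1 mouse and black bars for the mean ± SD of each group (n = 3). The lines of Nt5e and Entpd1 stay apart from each other, while the black bars of the groups overlap in all 4 panels.

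Nt5e encodes CD73, the surface enzyme that makes adenosine from AMP, and lies on chr9:88327609-88372089 of GRCm38.p6, plus strand. Its log2 intensity in the unstimulated cultures was 9.15, 8.01 and 8.78 in mice 2, 4 and 5, and with C5a it was 9.05, 8.09 and 8.67. The groups overlapped and each mouse kept its place, with mouse 2 highest and mouse 4 lowest in both. The group means were 8.65 ± 0.58 unstimulated and 8.60 ± 0.48 with C5a (SD, n = 3), a log2 difference of -0.05 (SE 0.08, 95% interval -0.25 to 0.16, adjusted p = 0.875 in limma). The interval leaves no room for a 1.5-fold change on average over these mice. Within the mice the difference was -0.10, 0.08 and -0.12.

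Between the mice, Nt5e averaged 9.10, 8.05 and 8.72 over both cultures of mice 2, 4 and 5. Mouse 2 exceeded mouse 4 by 1.05 on the log2 scale (SE 0.09, 95% interval 0.80 to 1.30), a 2.07-fold difference, and the 3 mice differed at an adjusted p of 0.0265 (limma). This call was lost when any 1 mouse was left out, with an adjusted p of 0.119 without mouse 2, 0.216 without mouse 4 and 0.116 without mouse 5. The order of the mice for Nt5e was not that of the mean of the macrophage and osteoclast markers, which was highest in mouse 4 and lowest in mouse 5. Both cultures of a mouse come from the same animal, so the test compares cell preparations of 3 mice.

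Entpd1 encodes CD39, which cuts ATP and ADP down to AMP, the substrate of CD73. It lies on chr19:40612366-40741602, plus strand. The log2 intensity of Entpd1 was 7.24, 8.30 and 5.02 in the unstimulated cultures of mice 2, 4 and 5, and 7.07, 8.30 and 5.56 with C5a. The groups overlapped over nearly their whole range, and mouse 4 was highest and mouse 5 lowest in both. The 2 arrays of mouse 4 held the same value for this probeset to the last deposited digit, as did 448 of all 35556 probesets on these 2 arrays, and 399 and 376 in mice 2 and 5. The value in the unstimulated culture of mouse 5 was below the olfactory receptor reference of that array, 5.34, and the other 5 values were above theirs.

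The group means of Entpd1 were 6.85 ± 1.68 unstimulated and 6.97 ± 1.37 with C5a (SD, n = 3), and the log2 difference was 0.12 (SE 0.15, 95% interval -0.28 to 0.52, adjusted p = 0.817 in limma). Within the mice it was -0.17, 0.00 and 0.54, so that the positive mean rested on mouse 5, and it was -0.09 without that mouse. The mean of the macrophage and osteoclast markers differed by -0.33, -0.44 and 0.13 with C5a in the same mice. Of these markers 0 of 12 passed the thresholds, against 3.28% of all probesets. Their part in the Entpd1 values was not tested. Without the pairing the SE was 1.02, since the spread between mice then stayed in the error.

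Among the 4 measured genes Entpd1 had the widest range between mice. It averaged 7.15, 8.30 and 5.29 over the cultures of mice 2, 4 and 5. Mouse 4 exceeded mouse 5 by 3.01 on the log2 scale (SE 0.19, 95% interval 2.52 to 3.51). No fold is given for it, since the mean of mouse 5 was itself below the olfactory receptor references of its arrays, 5.34 and 5.39. Mouse 4 exceeded mouse 2 by 2.21-fold. The 3 mice differed at an adjusted p of 0.0118 (limma), with 0.0291 without mouse 2, 0.0357 without mouse 4 and 0.109 without mouse 5. This order, mouse 4 above mouse 2 above mouse 5, was also that of the mean of the 12 macrophage and osteoclast markers and of the mean of the 6 osteoblast markers. The osteoblast mean was 11.7, 12.4 and 10.8 in the unstimulated cultures of mice 2, 4 and 5 and 11.5, 12.4 and 10.6 with C5a. The part of either set of cells in the difference was not tested.

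**Figure D2:**
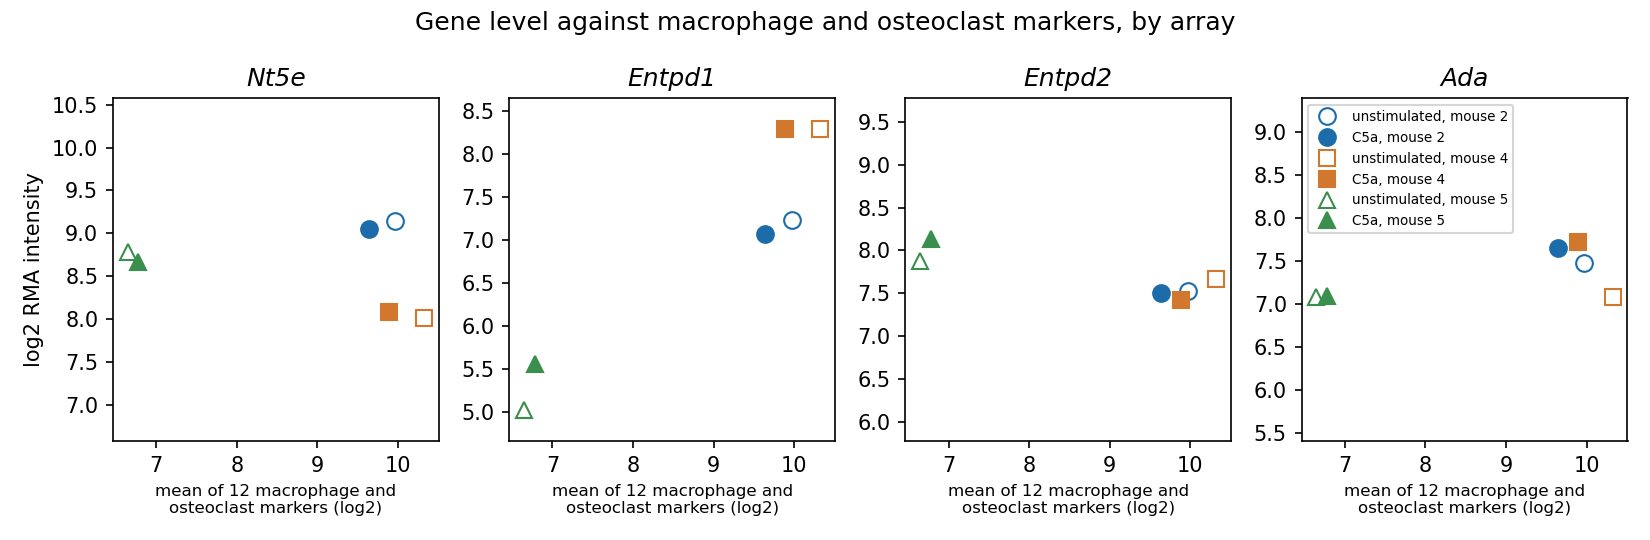
Log2 intensity of each measured gene (y axis, 4 units in each panel) against the mean log2 intensity of 12 macrophage and osteoclast markers (x axis), with 1 point per array, open for unstimulated and filled for C5a. The arrays of mouse 5 stand apart at 6.65 and 6.78 on the x axis and hold the lowest Entpd1 and the highest Entpd2 values.

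Because the points fall into a pair of clusters by mouse, no correlation with the markers is given. The genes closest to Entpd1 in pattern were taken over the 6 arrays from 2186 genes with a range of at least 1 on the log2 scale. They were Glipr1 (Pearson r = 0.996) and Arhgdib (r = 0.996). For Nt5e they were C1s1 (r = 0.994), a complement C1s gene, and Enpep (r = 0.988), the surface enzyme aminopeptidase A. These correlations describe 6 arrays that come from 3 mice, and the highest of 2186 were chosen.

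The upstream sequences of Nt5e and Entpd1 are shown because these genes differed between the mice. They are the 250 bases before each start given for the gene by RefSeq, on the GRCm38.p6 plus strand, 5′ to 3′. Nt5e has 1 window, chr9:88327359-88327608, and Entpd1 has 2, chr19:40612116-40612365 and chr19:40659520-40659769. The second Entpd1 window lies within the span of the gene given above. Capitals mark matches, on either strand, to the cyclic AMP response element core TGACG, the AP-1 site TGANTCA, the hypoxia response core ACGTG or GCGTG, and the Smad box core GTCTG. The cores TGACG and ACGTG can overlap by 3 bases. All 4 measured genes were matched, with 5 windows in all.
Nt5e: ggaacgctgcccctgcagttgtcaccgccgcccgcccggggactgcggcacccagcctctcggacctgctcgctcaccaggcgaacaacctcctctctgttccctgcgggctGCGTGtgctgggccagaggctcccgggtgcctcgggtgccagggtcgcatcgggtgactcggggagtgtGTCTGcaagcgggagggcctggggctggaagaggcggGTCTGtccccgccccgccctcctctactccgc
Entpd1 first window: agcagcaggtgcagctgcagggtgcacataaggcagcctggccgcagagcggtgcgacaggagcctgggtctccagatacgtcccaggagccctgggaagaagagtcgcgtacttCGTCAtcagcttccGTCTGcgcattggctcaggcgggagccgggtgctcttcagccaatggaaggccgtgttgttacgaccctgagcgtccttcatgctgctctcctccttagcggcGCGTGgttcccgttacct
Entpd1 second window: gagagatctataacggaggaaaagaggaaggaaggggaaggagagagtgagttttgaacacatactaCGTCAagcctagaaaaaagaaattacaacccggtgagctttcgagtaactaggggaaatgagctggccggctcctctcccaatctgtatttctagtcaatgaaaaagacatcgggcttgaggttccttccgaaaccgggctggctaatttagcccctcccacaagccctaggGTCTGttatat
The Nt5e window was rich in G and C (72.0%) and held 1 hypoxia core and 2 Smad cores. The first Entpd1 window, of 62.4% G and C, held 1 each of the cyclic AMP, hypoxia and Smad cores, and the second, of 47.2%, held 1 cyclic AMP core and 1 Smad core. The cyclic AMP core occurred in 17.7% of all 32817 windows of this length, the hypoxia core in 38.6% and the Smad core in 42.2%. The AP-1 site, present in 6.8% of all windows, was in neither gene's windows and in that of Entpd2. These are letter matches in short windows and not measured sites.

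Entpd2 encodes a CD39 relative that prefers ATP and so yields mainly ADP. It lies on chr2:25395874-25401323, plus strand. Its log2 intensity was 7.52, 7.67 and 7.88 in the unstimulated cultures of mice 2, 4 and 5 and 7.50, 7.43 and 8.13 with C5a. The groups overlapped, the C5a values spanned the unstimulated ones, and mouse 5 was highest in both. The group means were 7.69 ± 0.18 and 7.69 ± 0.39 (SD, n = 3), and the log2 difference was -0.00 (SE 0.11, 95% interval -0.30 to 0.29, adjusted p = 0.995 in limma). Within the mice it was -0.02, -0.24 and 0.25, with opposite signs in mice 4 and 5.

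Over both cultures Entpd2 averaged 7.51, 7.55 and 8.00 in mice 2, 4 and 5. The mouse with the lowest Entpd1 values thus had the highest Entpd2 values. The difference between the mice did not pass the test after adjustment (adjusted p = 0.265 in limma), and between mice 2 and 4 it was -0.03 (95% interval -0.39 to 0.33).

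Ada encodes adenosine deaminase, which removes adenosine by turning it into inosine. It lies on chr2:163726571-163750239, minus strand. The log2 intensity of Ada was 7.48, 7.08 and 7.08 in the unstimulated cultures of mice 2, 4 and 5 and 7.66, 7.73 and 7.10 with C5a. The C5a culture was higher in 3 of 3 mice, by 0.18, 0.65 and 0.02, although the groups overlapped and the value of mouse 5 barely moved. The group means were 7.21 ± 0.23 and 7.49 ± 0.34 (SD, n = 3), and the log2 difference was 0.28 (SE 0.14, 95% interval -0.08 to 0.64), with an unadjusted p of 0.0984 and an adjusted p of 0.429 (limma). The difference was 0.10 without mouse 4. The interval includes 0 as well as a 1.5-fold rise.

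Over both cultures Ada averaged 7.57, 7.40 and 7.09 in mice 2, 4 and 5, and the mice did not pass the test after adjustment (adjusted p = 0.432 in limma). Nt5e, Entpd2 and Ada were above the olfactory receptor reference on 6 of 6 arrays.

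Of 49 further genes of extracellular nucleotide and adenosine handling, 46 were measured, and 2 of 46 passed the thresholds of the methods, against 3.28% of all probesets. These were Ank and Ampd3, both higher with C5a and both short of an adjusted p under 0.05. At an unadjusted p under 0.05 there were 13 of 46, against 16.2% of all probesets. Enpp1, Cd38 and Ahcy had no probeset of their own and were not analysed here. The median log2 difference over the 46 genes was -0.02. Smooth muscle and pericyte markers (5 of 5 measured, 3 above the olfactory receptor reference on every array) had a mean of 8.29 to 9.14 unstimulated and 8.94 to 9.25 with C5a. Of these 5 markers, 2 passed the thresholds, against 3.28% of all probesets. The part of these markers in the differences that follow was not tested.

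**Figure D3:**
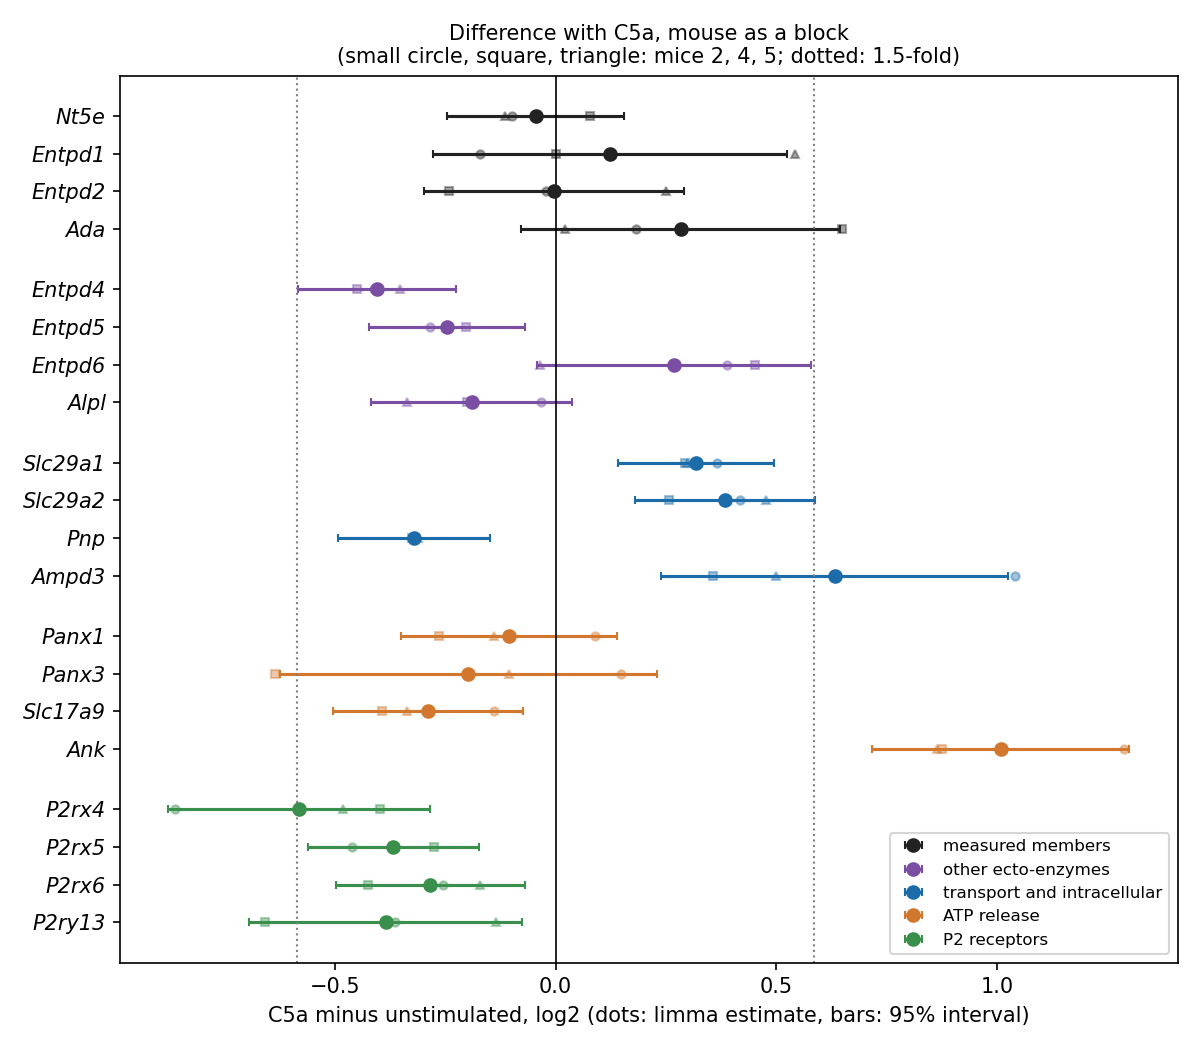
Log2 difference between C5a and unstimulated cultures (x axis) for the 4 measured members and for up to 4 genes of each other group with the smallest p, with the limma estimate as a large dot, its 95% interval as a bar and the difference within each mouse as a small symbol. The members' intervals all include 0, Ank lies at 1.01 and Ampd3 at 0.63, and dotted lines mark a 1.5-fold difference.

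ATP release was the first step examined, with 6 of 6 genes measured and a median log2 difference of -0.03. Past the thresholds, 1 of 6 was higher and 0 lower, against 1.71% and 1.57% of all probesets. The gene that passed was Ank, a membrane protein that exports ATP and citrate and is a source of extracellular pyrophosphate. Its log2 intensity was 10.19, 10.23 and 9.65 in the unstimulated cultures of mice 2, 4 and 5 and 11.48, 11.10 and 10.51 with C5a. All 3 C5a values were above all 3 unstimulated ones. The log2 difference of Ank was 1.01 (SE 0.11, 95% interval 0.72 to 1.30, adjusted p = 0.0869 in limma over all probesets). With the test limited to probesets that name 1 gene the adjusted p was 0.0251, and above the 40th percentile of mean values it was 0.0356. In every other alternative tested for Ank it was above 0.05. In limma it was 0.268 without the pairing and 0.310, 0.101 and 0.241 without mouse 2, 4 or 5. Slc17a9, the vesicular nucleotide transporter, had a log2 difference of -0.29 (SE 0.08, adjusted p = 0.197). The ATP channel genes Panx1 and Panx3 had -0.11 and -0.20. Panx3, known from osteoblasts, differed between the mice, with 6.91, 8.71 and 6.56 on average in mice 2, 4 and 5 (adjusted p = 0.0256 in limma).

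Of the other surface and secretory-pathway enzymes that cut nucleotides, 8 of 10 were measured, with a median log2 difference of -0.14. Of these 8, 0 passed the thresholds in either direction, against 3.28% of all probesets. Entpd4, a member of the CD39 family of the Golgi apparatus and lysosomes, had 10.38, 10.65 and 10.40 in the unstimulated cultures and 9.97, 10.20 and 10.05 with C5a. Every C5a value of Entpd4 was below every unstimulated one, and the log2 difference was -0.40 (SE 0.07, adjusted p = 0.112 in limma), short of 1.5-fold. With the test limited to probesets that name 1 gene the adjusted p was 0.0461. It was above 0.05 in every other alternative tested for Entpd4. In limma it was 0.253 without the pairing and 0.367, 0.184 and 0.292 without mouse 2, 4 or 5. Entpd5, of the endoplasmic reticulum, had -0.25 (SE 0.07), and Entpd6 had 0.27 (SE 0.12). Alpl, the alkaline phosphatase of mineralizing osteoblasts, which can also cut AMP, had a log2 difference of -0.19 (SE 0.09, adjusted p = 0.396) with C5a. Between the mice Alpl averaged 10.38, 11.32 and 9.46 (adjusted p = 0.00957 in limma), with the same order of mice as Entpd1.

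Nucleoside transport and the intracellular enzymes of adenosine metabolism were measured for 18 of 19 genes, with a median log2 difference of -0.00. Past the thresholds, 1 of 18 was higher and 0 lower, against 1.71% and 1.57% of all probesets. The gene that passed was Ampd3, an AMP deaminase that turns AMP into IMP inside the cell. Its log2 intensity was 9.70, 9.56 and 9.15 unstimulated and 10.74, 9.92 and 9.64 with C5a in mice 2, 4 and 5. It was higher in 3 of 3 mice and most so in mouse 2, while the groups overlapped. The log2 difference of Ampd3 was 0.63 (SE 0.15, adjusted p = 0.156 in limma), and it no longer passed the thresholds without mouse 2 or without the pairing. Slc29a1 and Slc29a2, equilibrative nucleoside transporters that carry adenosine across the membrane, had log2 differences of 0.32 (SE 0.07, adjusted p = 0.137) and 0.38 (SE 0.08, adjusted p = 0.131), each higher in 3 of 3 mice. The other members of this family, named after their values were seen, had -0.36 (Slc29a3, SE 0.12, adjusted p = 0.268, lower in 3 of 3 mice) and 0.03 (Slc29a4, SE 0.10). Pnp, the phosphorylase that acts on inosine downstream of Ada, had -0.32 (SE 0.07, adjusted p = 0.132) and was lower in 3 of 3 mice.

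The P2 receptors, which sense nucleotides before they are degraded, were measured for 14 of 14 genes, with a median log2 difference of -0.13. Of these genes, 0 of 14 passed the thresholds in either direction, against 3.28% of all probesets. P2rx4, an ATP-gated cation channel, had 10.85, 10.61 and 10.35 unstimulated and 9.99, 10.21 and 9.87 with C5a. All C5a values of P2rx4 were below all unstimulated ones. Its log2 difference of -0.58 (SE 0.11, adjusted p = 0.126 in limma) lay just inside 1.5-fold. Within mice 2, 4 and 5 it was -0.86, -0.40 and -0.48. P2rx4 passed the thresholds with the arrays centred on their medians, at -0.586, and without mouse 4 or mouse 5. It did not pass in the other alternatives, and the difference was -0.44 without mouse 2. The channel genes P2rx5 and P2rx6 had -0.37 and -0.28, and the ADP receptor gene P2ry13 had -0.39, each lower in 3 of 3 mice with adjusted p-values of 0.131, 0.201 and 0.223. The C5a values of P2ry13, 5.04, 5.10 and 5.02 in mice 2, 4 and 5, were below the olfactory receptor reference of their arrays. So was its unstimulated value in mouse 5, 5.16. P2ry2, a receptor for ATP and UTP named after its values were seen, had the largest log2 difference of this list, 0.72 (SE 0.32, adjusted p = 0.384 in limma). It was higher in 3 of 3 mice, by 0.24, 0.23 and 1.69 in mice 2, 4 and 5. Between the mice, 3 of 14 differed at an adjusted p under 0.05 (limma), against 2.5% of all probesets. These were P2rx6, P2rx7 and P2ry6, the last pair named after their values were seen. P2ry6, a receptor for UDP, averaged 7.87, 8.24 and 5.90 in mice 2, 4 and 5 (adjusted p = 0.00602 in limma), again with mouse 5 lowest.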

How the data were processed

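RNA of 6 osteoblast cultures was hybridized to Affymetrix Mouse Gene 1.0 ST arrays. Using Expression Console (Affymetrix) with BRB-ArrayTools, the authors summarized each probeset by RMA, the robust multiarray average, on a log2 scale, and these log2 values are the deposited ones. RMA summarizes several probes and keeps no measure of background, and levels of different probesets cannot be compared. The number of arrays, 3 a group, limits the precision. Array medians were 5.89 to 5.93.

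Probesets were named through the platform annotation: 21789 name 1 gene, 1621 several and 12146 none, the last not without a gene but unnamed here. Positions and upstream sequences are RefSeq's on GRCm38.p6. All 35556 probesets were fitted with limma 3.58.1 (R 4.3.3), with mouse as a block and Benjamini-Hochberg adjustment. The methods' thresholds were read as p under 0.05 and at least 1.5-fold. The sample titles give the numbers 2, 4 and 5 in both groups, and the series' design text has each pool of cells come from 1 of 3 mice, so a number was read as a mouse and cultures were paired by it. Deviations from group means correlated at 0.495 to 0.684 within a mouse and -0.446 to -0.035 between mice. As the deviations in a group cancel out, positive values within a mouse bring negative ones between mice, which are no separate support. Differences between mice were tested by the moderated F test of the mouse terms. The fit was tested on simulated data.

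The members and lists were chosen with earlier results of these data known. Named were the members, up to 4 genes of each list with the smallest p, and the 2 genes most like each member with a range of at least 1 on the log2 scale. Alternatives were the fit without the pairing, the methods' t-test, a paired t-test, a variance trend, filters on probesets, centring, quantile normalization and leaving out each mouse or array.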

Additional observations from a re-analysis of the deposited data

How the results depend on the processing

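The count of 0 of 4 members past the thresholds was the same under all 11 alternatives. Alternatives that change only the test or the probesets fitted leave the log2 differences as they are. As all 4 were short of 1.5-fold, the count could not change under these. With no replicate block, that is without pairing by mouse, 923 probesets passed the methods' thresholds against 1166 with it, and 5 against 4 reached an adjusted p under 0.05. The methods' t-test gave 665 and 0, and the paired t-test 517 and 0. At an adjusted p under 0.05, 373 of 21333 probesets were called above the 40th percentile of mean values and 795 of 21789 among probesets naming 1 gene. In both, the fit with its moderation of variances was made on these probesets only. Leaving out 1 mouse gave 885 to 1754 past the thresholds and 0 to 3 at an adjusted p under 0.05. The 2 further genes of the pathway past the thresholds became 1 without the pairing, in the methods' t-test and in the paired t-test, and 1 to 3 when 1 mouse was left out. The members that differed between mice fell from 2 to between 0 and 1 when 1 mouse was left out, where fewer samples were fitted.

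The log2 difference of Entpd2 was 0.018 after quantile normalization. When 1 mouse, or 1 array without pairing, was left out, Entpd1 ranged from -0.79 to 0.85, Entpd2 from -0.23 to 0.13 and Nt5e from -0.36 to 0.21, with changes of sign. Ada kept its sign in all 17 alternatives, at 0.10 to 0.48. Those that change only the test or the probesets fitted could not change it. Neither could leaving out 1 mouse, since Ada was higher in 3 of 3 mice. The lowest adjusted p of a member in any alternative was 0.296, for Ada.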
